A study of Mus musculus with 10 samples.

Results

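Axon guidance genes were described over 5 stages of blood formation from mouse embryonic stem (ES) cells in culture. Members were the ephrins, Eph receptors, semaphorins, plexins, Slits, Robos, netrins and Unc5 receptors, picked by gene symbol alone from a deposited matrix of 15686 genes. Of 64 symbols in that matrix that matched, Efnb2, Ephb4 and Unc5b were left out by definition, which gave 61 members. They comprise 7 ephrins, 20 semaphorins, 14 Slit, Robo, netrin and Unc5 genes, 11 Eph receptors and 9 plexins. Epha5 and Epha6 match as symbols but are not in the matrix, and the count tables hold Epha5 at 0.115 to 0.595 CPM (counts scaled to a common library size).

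These families were first known from growing axons, which they attract, repel or hold back through direct contact or secreted cues. Ephrins on one cell bind Eph receptor kinases on the next and both sides can signal; secreted or membrane-bound semaphorins bind plexins, often with neuropilins as co-receptors; Slits bind Robos; and netrins bind Dcc and the Unc5 receptors. The same pairs also act in blood vessels, where Plxnd1 reads semaphorin signals during vessel patterning and Robo4 is found mainly on endothelial cells, and several, such as Sema4d, act between cells of the immune system.

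RNA from nuclei, depleted of ribosomal RNA, was sequenced with strand information from the HM-1 mouse line, so that all stages stem from a single cell line. ES cells grew on gelatin with LIF in serum, and all later stages came from their differentiation in serum. HB (hemangioblast) cells were taken from 3-day embryoid bodies with magnetic beads against FLK1. Plated in blast culture with VEGF, IL-6 and medium conditioned by D4T endothelial cells, they gave 3 populations sorted by flow cytometry: HE1 (hemogenic endothelium, with KIT and TIE2 but no CD41 on the surface), HE2 (positive for all 3 proteins) and HP (hematopoietic progenitors, positive for CD41 and KIT and negative for TIE2). Each stage had 2 libraries, 10 in all, with 24920434 to 58782055 counts on genes.

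Values for each library are CPM with library sizes scaled by TMM, a floor of 3 counts equals 0.0532 to 0.126 CPM, and floors cover counting error only. All 61 members passed the filter on low counts and were tested among 22596 genes with edgeR's quasi-likelihood test and Benjamini-Hochberg adjustment over all of these. A member was called higher or lower if it changed by 2-fold or more and its adjusted p was under 0.05. Fold changes are on the log2 scale, later stage over earlier, with their standard error, from 2 libraries a stage. Comparisons that have a stage in common share its libraries. In bulk RNA, fewer cells of a type and less RNA per cell cannot be told apart.

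Stage labels were checked against marker lists of 8 genes each. ES markers summed to 2505 and 2432 CPM (ES), 148 and 107 (HB), 48.3 and 103 (HE1), 22 and 10.9 (HE2) and 13.6 and 11 (HP), with Pou5f1 the most abundant in ES, and 8 of 8 fell from ES to HB. The HB list, which holds the FLK1 gene Kdr, summed to 18.4 and 19.7 CPM (ES), 2411 and 2924 (HB), 1341 and 832 (HE1), 978 and 658 (HE2) and 383 and 371 (HP). In it 8 of 8 genes rose from ES to HB. Endothelial markers summed to 254 and 265 CPM (ES), 337 and 294 (HB), 4230.0 and 2460.0 (HE1), 2669 and 1625 (HE2) and 817 and 796 (HP), led by Cdh5 in HE1, and 8 of 8 rose from HB to HE1. Blood progenitor markers summed to 32.7 and 31.6 CPM (ES), 163 and 157 (HB), 572 and 426 (HE1), 1558 and 1942 (HE2) and 1884 and 1569 (HP), and 8 of 8 rose from HE1 to HE2. The TIE2 gene Tek measured 564 and 294 CPM in HE1 and 61.5 and 64.2 in HP, and the CD41 gene Itga2b 227 and 127 CPM in HE1 and 505 and 469 in HE2.

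Libraries of the same stage differed in the sorted populations. Pearson's r between the replicates, across genes on log2 CPM, was 0.994 (ES), 0.988 (HB), 0.967 (HE1), 0.983 (HE2) and 0.982 (HP), and genes are not independent replicates. The ES libraries differed least, with a chi-square per degree of freedom, where 1 is counting error alone, of 2.50 against 18.8 to 42.5 in the other stages. Each standard error and p with ES takes them as 2 replicates. HE2 replicate 1 had more endothelial and less blood marker RNA than HE2 replicate 2, by the sums above. HE1 replicate 2 had the lower endothelial sum of its stage, together with Sox2 at 9.28 CPM against 0.715 in HE1 replicate 1, Tnnt2 at 74.2 against 16 and Col1a1 at 671 against 176. The part of these differences in the results below was not tested, and values for single libraries are given throughout.

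In 60 of the 61 members the 5 stages differed (66.7% of all tested genes did). The exception was the class 3 semaphorin Sema3d, at 0.502 to 1.69 CPM (adjusted p = 0.234). In a fit of only the genes of the deposited matrix, from which the members came, 60 members and 79.3% of the genes tested differed. By mean level ES was the highest stage of 23 members, HB of 22, HE1 of 10, HE2 of 3 and HP of 3. For all tested genes these shares were 33.3% (ES), 17.3% (HB), 23.5% (HE1), 10.1% (HE2) and 15.8% (HP). Both ES libraries lay above the other 8 for 23 of the 23 members highest there, both HB libraries for 18 of 22, both HE1 libraries for 7 of 10, both HE2 libraries for 1 of 3 and both HP libraries for 0 of 3. The like share over all tested genes was not computed, and the ES libraries differed least from each other. These counts therefore do not set the members apart from other genes. A stage mean of at least 9 CPM was reached by 32 (ES), 37 (HB), 33 (HE1), 28 (HE2) and 24 members (HP), and by 49 in at least 1 stage. Over all tested genes the shares at that level were 46.3% (ES), 45.3% (HB), 45.3% (HE1), 45.3% (HE2) and 45.2% (HP).

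**Figure D1:**
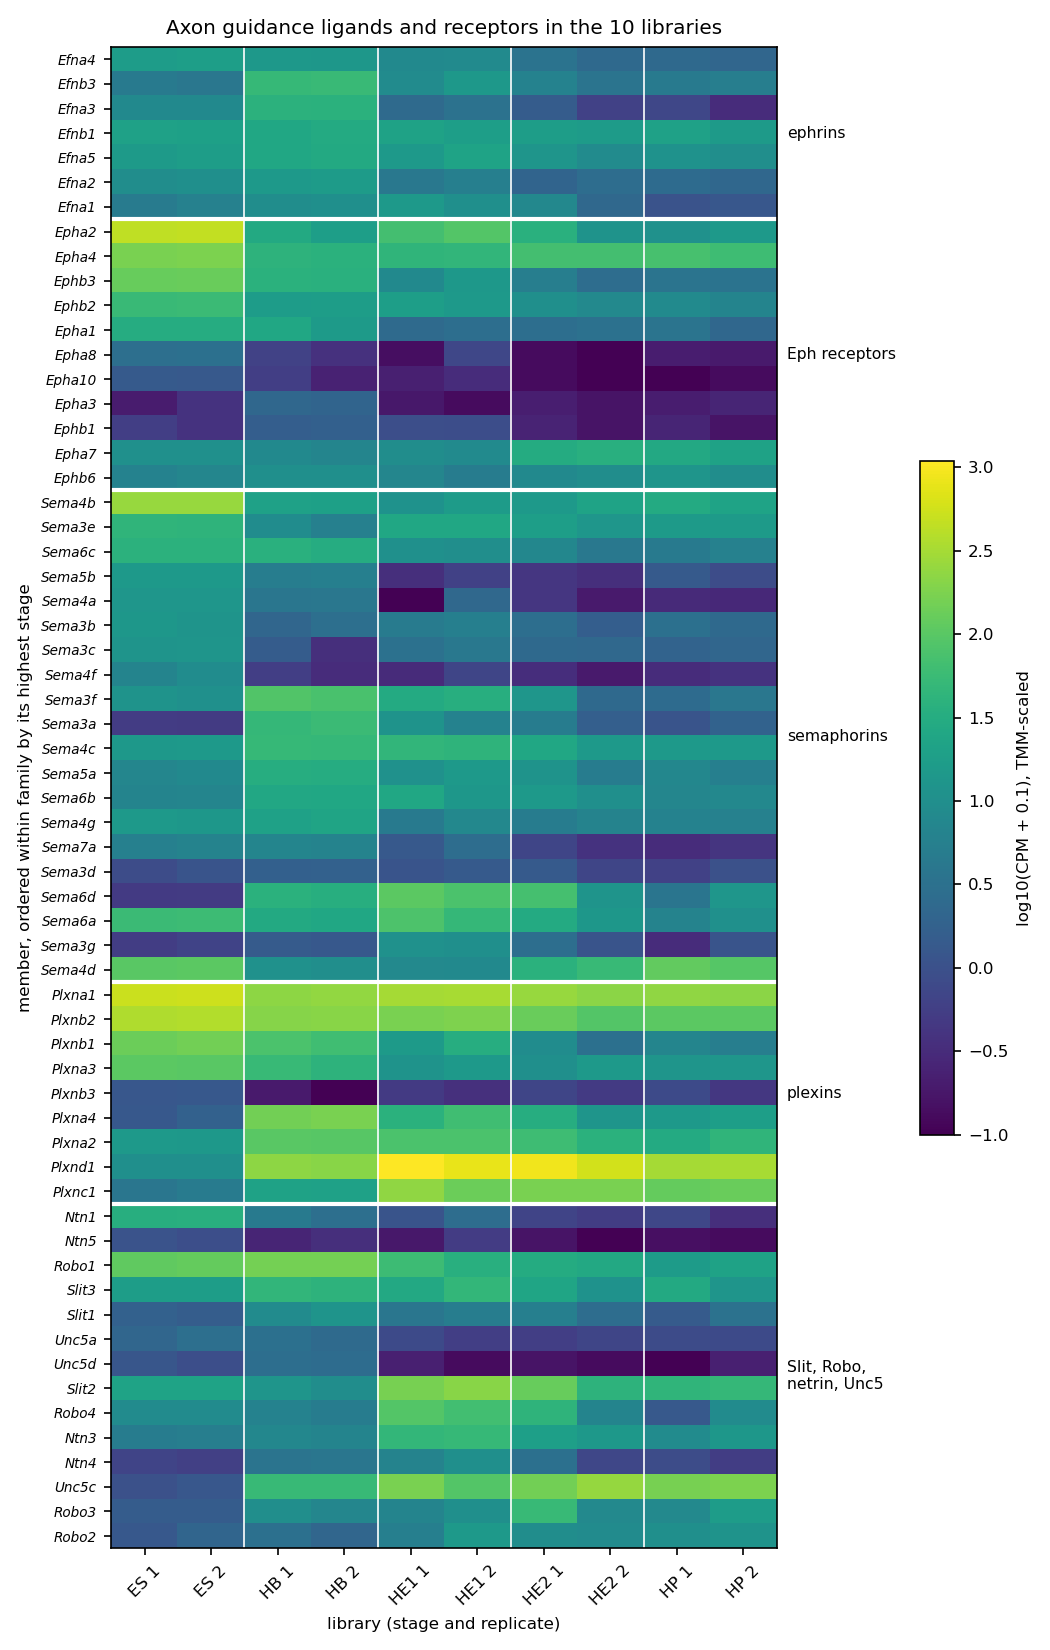
Level of each of the 61 members (vertical) in each of the 10 libraries (horizontal), as log10 of TMM-scaled CPM plus 0.1, grouped by family and ordered by the stage of the highest mean. Of the members, 23 are highest in ES and 22 in HB, and 3 each in HE2 and HP.

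Per length of exon, the Eph receptors had their highest mean sum in ES and the plexins in HE1. The FPKM summed over all members was 437 and 452 (ES), 304 and 296 (HB), 408 and 359.8 (HE1), 317 and 219 (HE2) and 187 and 184 (HP). Eph receptors summed to 153 and 158 (ES), 28.7 and 23.6 (HB), 26 and 31.7 (HE1), 23.8 and 18.9 (HE2) and 19.6 and 17.1 (HP) FPKM, and Epha2 alone made up 63.6% of their FPKM in ES. Plexins summed to 134 and 139.8 (ES), 116 and 114 (HB), 245 and 198 (HE1), 199 and 139.8 (HE2) and 101 and 103 (HP) FPKM, and Plxnd1 took 58.4% of that in HE1. Ephrins had their highest summed FPKM in HB, at 65.9 and 69.5. The summed FPKM of Slit, Robo, netrin and Unc5 genes was highest in HE1, at 53.7 and 51.7. In FPKM the most abundant member was Epha2 in ES (99.1) and Plxnd1 in HB (29.4), HE1 (129), HE2 (102) and HP (43.3).

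**Figure D2:**
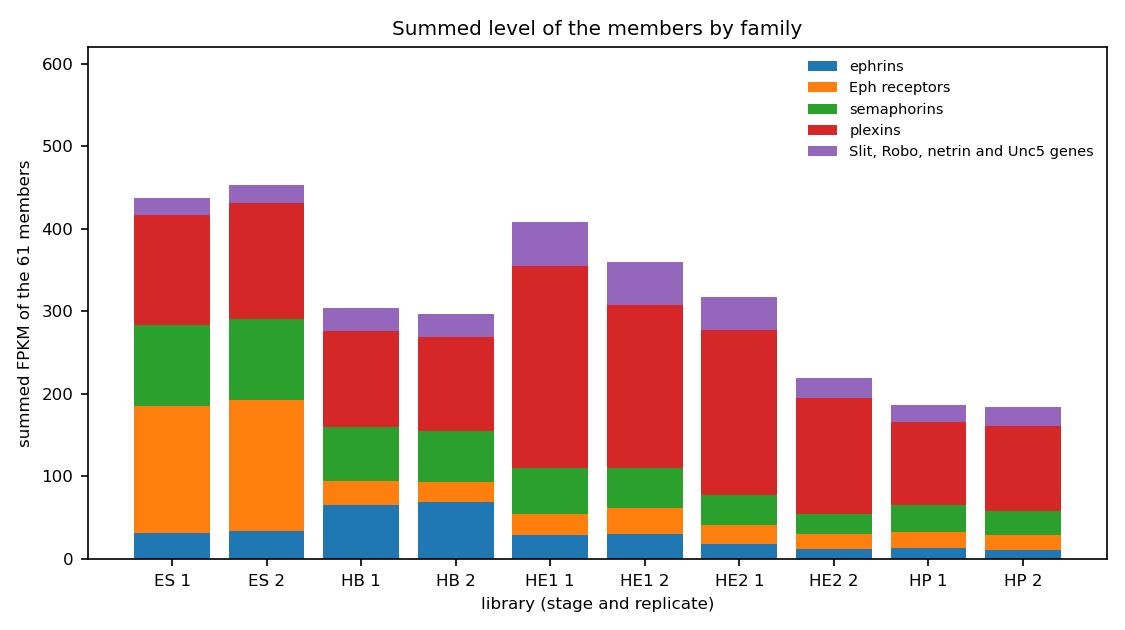
Summed FPKM of the 61 members in each library (bars, from 0), divided by family. The Eph receptors sum to 153 and 158 FPKM in the ES libraries and to 17.1 and 19.6 in the HP libraries, and the plexins to 245 and 198 in HE1.

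Among the ligands, 5 of 7 ephrins had their highest mean in HB (17.3% of all tested genes did). Of the 7, 2, Efna3 and Efnb3, were called higher there than in ES (11.5% of all tested genes were). Efnb3, a transmembrane ephrin, measured 4.45 and 3.96 CPM (ES), 50.0 and 53.7 (HB), 8.79 and 14.3 (HE1), 6.16 and 3.49 (HE2) and 4.54 and 5.21 (HP). Both HB libraries lay above the other 8, none of which passed 14.3 CPM. Efnb3 rose from ES to HB (3.62 ± 0.31, adjusted p = 1.36e-05) and fell from HB to HE1 (-2.17 ± 0.29, adjusted p = 0.000464). The membrane-anchored Efna3 took a like course, with 8.04 and 8.03 CPM (ES), 39 and 37.8 (HB), 2.40 and 3.20 (HE1), 1.37 and 0.508 (HE2) and 0.616 and 0.223 (HP). It fell below its ES level after HB and the 4 libraries of HE2 and HP lay between 0.223 and 1.37 CPM. The changes of Efna3 were 2.26 ± 0.39, adjusted p = 0.00107, from ES to HB and -3.77 ± 0.42, adjusted p = 0.000155, from HB to HE1. Efna2 stood at 9.31 and 10.1 CPM (ES), 14.4 and 16.1 (HB), 4.0 and 5.45 (HE1), 1.92 and 2.63 (HE2) and 2.51 and 2.10 (HP). Its HB libraries were the highest of the 10, and it fell from HB to HE1 (-1.69 ± 0.27, adjusted p = 0.00128).

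Of the other ephrins, Efna4 was highest in ES and lower at each later stage, with 16.8 and 18.6 CPM (ES), 14.1 and 13.6 (HB), 8.29 and 8.52 (HE1), 3.32 and 2.32 (HE2) and 2.28 and 2.04 (HP). The HP libraries lay just below HE2, and the called step was from HE1 to HE2 (-1.57 ± 0.24, adjusted p = 0.00483), which was not called when only the HE1 and HE2 libraries were fitted. Efna1, the ephrin A ligand known from endothelial cells, measured 4.70 and 5.91 CPM (ES), 9.52 and 10.1 (HB), 14.7 and 10.2 (HE1), 7.59 and 2.22 (HE2) and 0.981 and 1.14 (HP). The HE1 libraries were highest, just above HB, the HP libraries were the lowest of the 10, and Efna1 fell from HE1 to HP (-3.55 ± 0.51, adjusted p = 0.00109). Efnb1 and Efna5 had no called change between stages. Efnb1 measured 20.2 and 19.4 CPM (ES), 25 and 29 (HB), 21.1 and 18.3 (HE1), 17.4 and 16.2 (HE2) and 20.3 and 15.6 (HP), and Efna5 15.6 and 17.4 CPM (ES), 24.9 and 28.4 (HB), 15 and 22 (HE1), 12.5 and 8.70 (HE2) and 11.2 and 9.63 (HP). From HE1 to HE2, Efnb3 (-1.26), Efna3 (-1.57) and Efna2 (-1.05) were called lower too, but none of these 3 calls held without HE2 replicate 2 (-0.89, -1.02 and -1.28) or without HE1 replicate 2 (-0.87, -1.34 and -0.81). Without HE2 replicate 1 they were -1.70, -2.44 and -0.82, of which Efna2 was not called. Without ES replicate 1, ES replicate 2, HB replicate 1 or HB replicate 2, Efna3 (-1.55, -1.55, -1.55 and -1.55) and Efna2 (-1.02, -1.02, -1.02 and -1.02) were not called.

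Secreted class 3 semaphorins changed at different stages. Sema3a, a repulsive ligand that binds Nrp1 with A-type plexins, measured 0.426 and 0.402 CPM (ES), 48.8 and 57.1 (HB), 11.7 and 6.04 (HE1), 4.91 and 1.56 (HE2) and 1.0 and 1.78 (HP). The gene was low in ES, the HB libraries stood above the other 8, and the later libraries lay in between. It had the largest rise of any member from ES to HB (6.98 ± 0.61, adjusted p = 1.4e-05) and fell from HB to HE1 (-2.58 ± 0.47, adjusted p = 0.00258; -3.18 without HE1 replicate 1). Sema3f, which acts through Nrp2, gave 11.9 and 10.6 CPM (ES), 86.4 and 76.8 (HB), 29.4 and 33.6 (HE1), 13.2 and 2.29 (HE2) and 2.46 and 3.91 (HP). Its HB libraries were highest, the HE1 libraries came next, and HE2 replicate 2 lay just below the HP libraries. Sema3f rose from ES to HB (2.86 ± 0.56, adjusted p = 0.00241) and fell from HE1 to HP (-3.32 ± 0.59, adjusted p = 0.00327). Sema3e, the ligand that binds Plxnd1 directly, was highest in ES, with 43.7 and 42.8 CPM (ES), 8.99 and 5.66 (HB), 25.4 and 25.5 (HE1), 18 and 13.1 (HE2) and 15.6 and 15.9 (HP). It fell from ES to HB (-2.56 ± 0.24, adjusted p = 2.22e-05) and rose from HB to HE1 (1.80 ± 0.24, adjusted p = 0.000377), with no overlap in either comparison. Sema3g, which signals through Nrp2 and is known from arterial endothelium, was low outside HE1, with 0.443 and 0.545 CPM (ES), 1.36 and 1.18 (HB), 10.8 and 10.1 (HE1), 2.74 and 1.02 (HE2) and 0.228 and 1.02 (HP). It rose from HB to HE1 (3.04 ± 0.62, adjusted p = 0.00462) and fell from HE1 to HP (-4.11 ± 0.66, adjusted p = 0.00186). Without HP replicate 1 that fall was -3.34 and without HP replicate 2 it was -5.48. Sema3b and Sema3c were highest in ES, at 13.8 and 12.1 and at 12.1 and 12.6 CPM. Sema3c fell to 1.39 and 0.254 CPM in HB (-3.93 ± 0.58, adjusted p = 0.000392), a change of -5.56 without HB replicate 1 and -3.15 without HB replicate 2.

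Class 4 semaphorins, which span the membrane, were highest in different stages. Sema4d, a ligand of Plxnb1 and, on lymphocytes, of Cd72, measured 103 and 105 CPM (ES), 10.9 and 9.78 (HB), 7.74 and 8.19 (HE1), 38.2 and 52.4 (HE2) and 119 and 95.5 (HP). ES and HP libraries were high and overlapped, HB and HE1 libraries were low, and HE2 stood between. Sema4d fell from ES to HB (-3.33 ± 0.19, adjusted p = 1.24e-06), rose from HE1 to HE2 (2.51 ± 0.19, adjusted p = 0.00025) and was higher in HP than in HE1 (3.75 ± 0.20, adjusted p = 1.84e-05). From HE2 to HP its change was 1.24 ± 0.18 and missed the threshold (adjusted p = 0.0665), although both HP libraries lay above both HE2 libraries. Sema4b gave 257 and 256 CPM (ES), 20.7 and 19.7 (HB), 11.5 and 16.2 (HE1), 15 and 21.8 (HE2) and 29.4 and 21.7 (HP). Both ES libraries lay far above the other 8, and Sema4b fell from ES to HB (-3.66 ± 0.24, adjusted p = 2.52e-06). Sema4c was high in HB and HE1, with 13.9 and 14.9 CPM (ES), 50.3 and 49.6 (HB), 46.3 and 42.9 (HE1), 25.7 and 14.9 (HE2) and 14.5 and 14.6 (HP). It rose from ES to HB (1.79 ± 0.23, adjusted p = 0.000148) and was lower in HP than in HE1 (-1.61 ± 0.23, adjusted p = 0.000971). Its fall from HE1 to HE2 (-1.13 ± 0.22, adjusted p = 0.0145) was not called without HE2 replicate 2 (-0.78). Sema4f was at 6.63 and 9.04 CPM in ES and at most 0.595 in the other libraries. Sema4a, at 13.3 and 13.1 CPM in ES, had 0 counts in HE1 replicate 1 and 67 in HE1 replicate 2, and measured 3.70 and 3.92 CPM in HB, 0.335 and 0.0952 in HE2 and 0.205 and 0.191 in HP. With edgeR over all libraries and the filter on low counts it had no called change. Limma-voom, and edgeR with no filter, called it lower in HB than in ES and lower in HE1 than in HB. With no filter, edgeR also called it lower in HE2 and HP than in HE1. With only the libraries compared, edgeR called it lower in HB than in ES. Its calls also changed when an HE1 library was left out. Sema4g lay at 20.0 and 23 CPM in HB and fell from HB to HE1 (-1.84 ± 0.28).

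Transmembrane class 6 semaphorins, ligands of A-type plexins, included Sema6d and Sema6a among the abundant members of HE1. Sema6d measured 0.390 and 0.402 CPM (ES), 38.2 and 33.4 (HB), 106 and 79.8 (HE1), 70.0 and 12.4 (HE2) and 3.56 and 13.3 (HP). It was low in ES, highest in HE1, and HE2 replicate 2 lay among the HP values while HE2 replicate 1 lay near HE1. Sema6d rose from ES to HB (6.49 ± 0.93, adjusted p = 0.000337) and was lower in HP than in HE1 (-3.48 ± 0.73, adjusted p = 0.00728). That fall became -2.79 without HP replicate 1, where it was not called (adjusted p = 0.0588), and -4.69 without HP replicate 2. Sema6a gave 55.5 and 57.7 CPM (ES), 28.2 and 25.6 (HB), 81.3 and 48.9 (HE1), 29.6 and 13.8 (HE2) and 6.23 and 10.6 (HP). ES and HE1 overlapped at the top and the HP libraries were lowest. Its fall from HE1 to HP (-2.96 ± 0.38, adjusted p = 0.000683) was called with each library left out. Its fall from ES to HB (-1.07 ± 0.36, adjusted p = 0.034) was not called without any 1 of the ES and HB libraries (adjusted p 0.0858, 0.0991, 0.11 and 0.151) or with total counts in place of TMM. The rise of Sema6a from HB to HE1 (1.27) was not called without either HB library (1.28 and 1.16) or HE1 replicate 1 (0.82).

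Of the other semaphorins, Sema6b and Sema5a rose from ES to HB, to 26.2 and 25 and to 32.8 and 31.9 CPM. Sema6c stood at 40.0 and 39.2 CPM in ES and 36.4 and 31.9 in HB and fell to 10.7 and 9.97 in HE1 (-1.73 ± 0.27, adjusted p = 0.001). Sema5b gave 15.1 and 15.5 CPM (ES), 5.12 and 5.35 (HB), 0.252 and 0.495 (HE1), 0.335 and 0.254 (HE2) and 1.30 and 0.763 (HP). It fell at each of the first 2 steps and was slightly higher in HP than in HE1 (1.44 ± 0.42, adjusted p = 0.0308), a call that ended without ES replicate 1 (1.47), ES replicate 2 (1.47), HE1 replicate 1 (1.10) or HP replicate 1 (1.01). Without HE1 replicate 2 the change was 2.04. The call also ended with the replicate number as a term (adjusted p = 0.051), in limma-voom (0.0727) and with only the libraries compared (0.23). Sema7a, a lipid-anchored ligand of Plxnc1 and of integrins, measured 5.69 and 6.37 CPM (ES), 6.78 and 6.20 (HB), 1.26 and 2.67 (HE1), 0.609 and 0.286 (HE2) and 0.228 and 0.318 (HP). ES and HB overlapped, and the HE2 and HP libraries were the lowest.

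Among the secreted Slits and netrins, Slit2 and Ntn3 were highest in HE1. Slit2, the ligand of Robo1 and a reported partner of Robo4, measured 21.6 and 21.7 CPM (ES), 12.7 and 9.32 (HB), 164 and 209 (HE1), 128 and 41.5 (HE2) and 43.6 and 49.7 (HP). Both HE1 libraries were highest, HE2 replicate 1 came next, and HE2 replicate 2 lay near the HP libraries. Slit2 had the largest rise of any member from HB to HE1 (4.09 ± 0.44, adjusted p = 0.000125). It was lower in HP than in HE1 (-2.0 ± 0.40, adjusted p = 0.00572), a call that ended without HP replicate 1 (-1.89, adjusted p = 0.058). Ntn3 gave 4.86 and 5.28 CPM (ES), 7.37 and 6.42 (HB), 47.7 and 49.9 (HE1), 19.2 and 14.3 (HE2) and 8.92 and 13.8 (HP). The HE1 libraries lay above the other 8, and Ntn3 rose from HB to HE1 (2.82 ± 0.25, adjusted p = 3.58e-05) and fell from HE1 to HE2 (-1.54 ± 0.23, adjusted p = 0.00467). Exons of Ntn3 overlap Tbc1d24 on the same strand, and fragments in both were counted on each, so the Ntn3 values may hold some of the 14799 counts of Tbc1d24 over all libraries. Ntn1, the netrin that guides axons through Dcc, was a gene of ES, with 33.4 and 35.6 CPM (ES), 4.40 and 2.85 (HB), 1.01 and 2.67 (HE1), 0.579 and 0.444 (HE2) and 0.616 and 0.254 (HP). It fell from ES to HB (-3.25 ± 0.44, adjusted p = 0.000244). Slit3 gave 17.4 and 17.7 CPM (ES), 45.1 and 41.3 (HB), 27.3 and 47.2 (HE1), 23.8 and 11.6 (HE2) and 28.3 and 12.8 (HP). HB overlapped HE1 and HE2 overlapped HP, and the rise of Slit3 from ES to HB (1.30 ± 0.41, adjusted p = 0.0256) was not called without any 1 of the ES and HB libraries (adjusted p 0.0912, 0.0825, 0.0835 and 0.067). Ntn4, a netrin of basement membranes, was at 0.568 and 0.488 CPM in ES, 3.44 and 3.75 in HB, 6.39 and 10.0 in HE1 and 0.776 and 0.445 in HP, and fell from HE1 to HP (-3.73 ± 0.65, adjusted p = 0.00282). Slit1 was highest in HB, at 8.89 and 12.2 CPM, and Ntn5 stayed at or under 0.976 CPM.

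**Figure D3:**
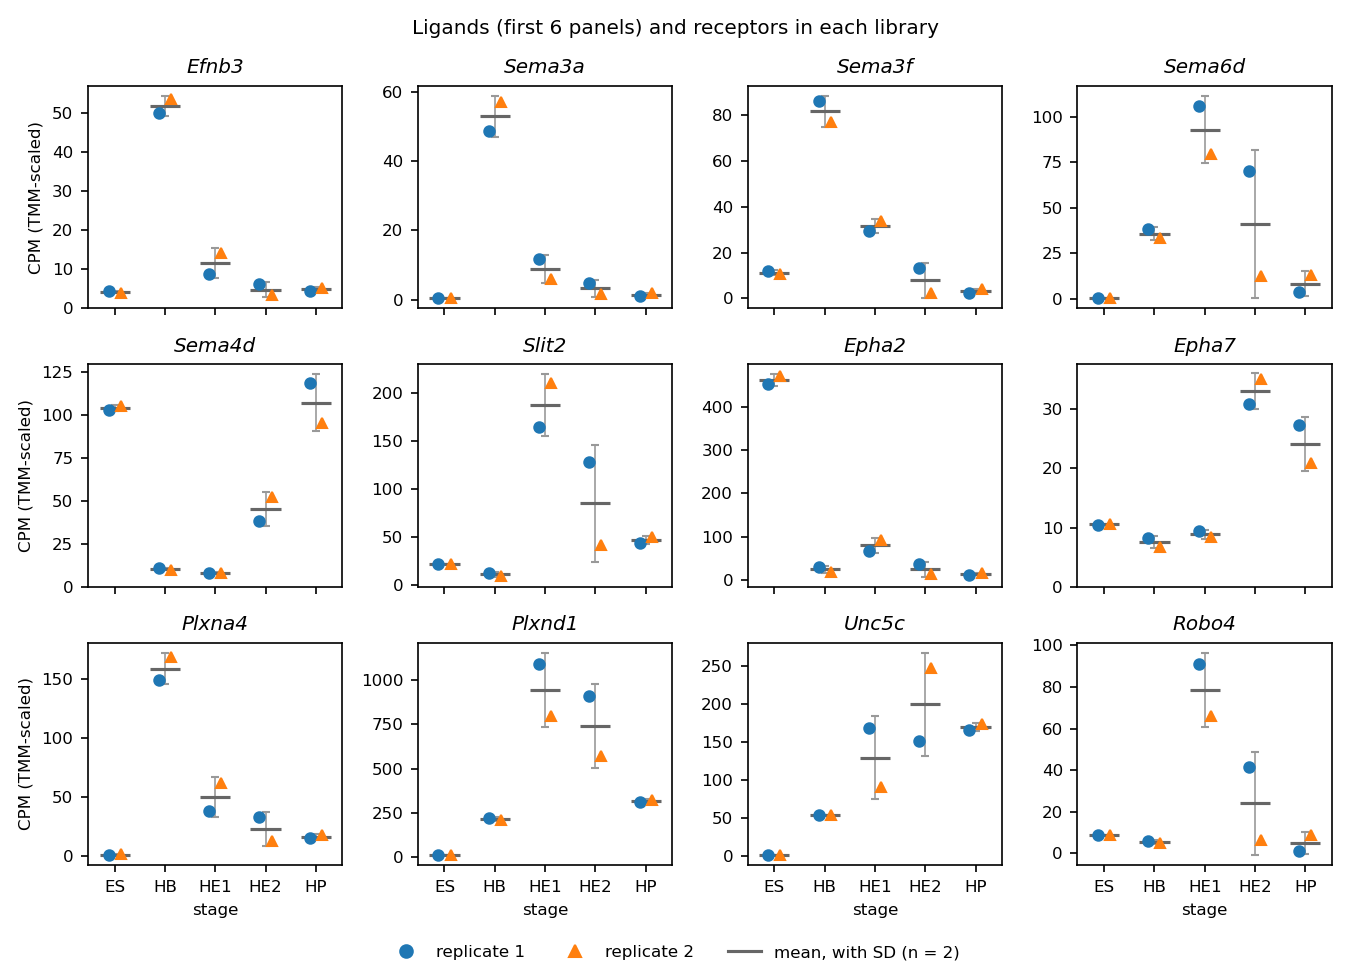
TMM-scaled CPM of 6 ligands and 6 receptors in each library (circles replicate 1, triangles replicate 2), with the stage mean as a line and the SD of the 2 libraries as a bar. Sema3a and Plxna4 are highest in HB, Slit2 and Robo4 in HE1, Epha7 in HE2, and Sema6d, Slit2 and Robo4 differ between the HE2 libraries.

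Of the 11 Eph receptors, 7 had their highest mean in ES (33.3% of all tested genes did), each with both ES libraries above the other 8. Epha2 measured 454 and 472 CPM (ES), 28.5 and 18.4 (HB), 67.1 and 91.3 (HE1), 35.9 and 11.8 (HE2) and 10.8 and 15 (HP). The ES libraries lay far above the other 8, HE1 stood above HB, and HE2 replicate 2 lay among the HP values. Epha2 fell from ES to HB (-4.30 ± 0.46, adjusted p = 5.18e-05) and was lower in HP than in HE1 (-2.62 ± 0.43, adjusted p = 0.00212). Its rise from HB to HE1 (1.76 ± 0.42, adjusted p = 0.01) was not called without HB replicate 2 (1.43) or HE1 replicate 2 (1.52). Its fall from HE1 to HE2 (-1.73) was -2.72 without HE2 replicate 1, and it was not called without HE2 replicate 2 (-1.12) or HE1 replicate 2 (-1.49). Epha4, which binds ephrins of both classes, gave 170.4 and 174 CPM (ES), 41 and 38.5 (HB), 43.7 and 46 (HE1), 68.3 and 68 (HE2) and 73 and 61.4 (HP). After its fall from ES to HB (-2.12 ± 0.14, adjusted p = 2.42e-06) the HE2 and HP libraries again lay above those of HB and HE1, by less than 2-fold. Ephb3 measured 127 and 129 CPM (ES), 37.4 and 37 (HB), 8.03 and 14.3 (HE1), 5.27 and 2.63 (HE2) and 3.54 and 3.40 (HP). Its libraries stepped down from ES to HE1, and it fell from ES to HB (-1.78 ± 0.30, adjusted p = 0.000867) and from HB to HE1 (-1.73 ± 0.30, adjusted p = 0.00201).

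Epha7 was the 1 Eph receptor with its highest mean in HE2, and measured 10.5 and 10.5 CPM (ES), 8.20 and 6.76 (HB), 9.34 and 8.32 (HE1), 30.8 and 35.2 (HE2) and 27.4 and 20.9 (HP). The HE2 libraries were highest, the HP libraries next, and the 6 libraries of ES, HB and HE1 lay between 6.76 and 10.5 CPM. Epha7 rose from HE1 to HE2 (1.90 ± 0.20, adjusted p = 0.00073), was higher in HP than in HE1 (1.45 ± 0.20, adjusted p = 0.000926), and both calls held with each library left out. Ephb2 gave 55.2 and 55.7 CPM (ES), 16.9 and 17.4 (HB), 18.2 and 15.3 (HE1), 10.1 and 8.0 (HE2) and 8.55 and 6.45 (HP). Epha1 held 31.9 and 31.9 CPM (ES), 25 and 15.6 (HB), 2.40 and 2.74 (HE1), 2.74 and 3.08 (HE2) and 3.51 and 2.10 (HP), with a change of -2.98 ± 0.31, adjusted p = 9.64e-05, from HB to HE1. Ephb6, a receptor without kinase activity, had no called change, with 6.0 and 6.94 CPM (ES), 10.2 and 10.3 (HB), 6.94 and 4.82 (HE1), 8.01 and 9.62 (HE2) and 12.5 and 9.41 (HP). Epha3, Epha8, Epha10 and Ephb1 stayed under 3 CPM in each library. Epha3 had 65 and 68 counts in HB and 2 and 1 in HE1, a ratio of 36.5 between the scaled counts (95% exact interval for counting error 12.2 to 179). Ephb1 was called higher in HB than in ES (2.03), but not without any 1 of those 4 libraries (adjusted p 0.0697, 0.15, 0.054 and 0.0711).

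Plexins, the semaphorin receptors, exchanged their leading genes. Plxnd1, the endothelial plexin, measured 10.2 and 10.3 CPM (ES), 222 and 207 (HB), 1094 and 796 (HE1), 909 and 573 (HE2) and 309 and 324 (HP). HE1 and HE2 overlapped at the top, HB and HP stood below them, and the ES libraries were the lowest of the 10. Plxnd1 rose from ES to HB (4.39 ± 0.26, adjusted p = 1.32e-06) and from HB to HE1 (2.14 ± 0.23, adjusted p = 0.000126), and was lower in HP than in HE1 (-1.58 ± 0.23, adjusted p = 0.00109). Each of these calls held with each library left out. Plxna4, which transmits Sema3a signals with Nrp1, gave 1.19 and 1.69 CPM (ES), 149 and 168 (HB), 38 and 62.3 (HE1), 33.3 and 12.7 (HE2) and 15.3 and 18 (HP). The HB libraries were highest and the ES libraries lowest of the 10. It rose from ES to HB (6.80 ± 0.49, adjusted p = 4.33e-06) and fell from HB to HE1 (-1.66 ± 0.38, adjusted p = 0.00807). Plxna2 followed Plxna4 up in HB, with 14.9 and 14.2 CPM (ES), 102 and 99.2 (HB), 78.1 and 78.7 (HE1), 60.7 and 37.5 (HE2) and 29.3 and 43.2 (HP), and rose from ES to HB (2.79 ± 0.25, adjusted p = 1.48e-05). Plxnc1, the receptor of Sema7a, measured 3.76 and 4.71 CPM (ES), 21.4 and 20.3 (HB), 235 and 134 (HE1), 169.7 and 166 (HE2) and 119 and 129 (HP). HE1 and HE2 overlapped, HP was a little lower, and Plxnc1 rose from ES to HB (2.31 ± 0.25, adjusted p = 5.24e-05) and from HB to HE1 (3.15 ± 0.24, adjusted p = 1.83e-05). The locus overlaps Gm48718, to which 1960 counts were given over all libraries, against 31451 for Plxnc1.

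A second set of plexins was highest in ES. Plxna1 gave 516 and 539 CPM (ES), 227 and 239 (HB), 314 and 322 (HE1), 263 and 219 (HE2) and 236 and 216 (HP). It fell from ES to HB (-1.18 ± 0.15, adjusted p = 0.000134) and stayed abundant: in FPKM it was the second plexin of HE1, at 35.1 against 129 for Plxnd1. Plxnb2 gave 355 and 376 CPM (ES), 203 and 213 (HB), 168 and 179 (HE1), 130.5 and 91.6 (HE2) and 105 and 104 (HP), with no called change. Plxnb1, the Sema4d receptor, measured 138 and 149.5 CPM (ES), 78.8 and 63.2 (HB), 15.8 and 33.2 (HE1), 9.05 and 2.98 (HE2) and 6.82 and 5.28 (HP). HP and HE2 overlapped at the bottom, so that the stages with most Sema4d after ES had the least Plxnb1. Plxnb1 was lower in HP than in HE1 (-2.02 ± 0.45, adjusted p = 0.00935), a call that ended without HE1 replicate 2 (-1.38), HP replicate 1 (-2.20) or HP replicate 2 (-1.82). Plxna3 gave 104 and 102 CPM (ES), 52.3 and 41.5 (HB), 11.7 and 14.9 (HE1), 10.1 and 15.2 (HE2) and 12.8 and 13.3 (HP) and fell from HB to HE1 (-1.81 ± 0.22, adjusted p = 0.000216). Plxnb3 had 66 and 42 counts in ES and 3 and 0 in HB, a ratio of 25.9 between the scaled counts (95% exact interval for counting error 8.64 to 128). Its fall from ES to HB (-4.57) was -8.41 without HB replicate 1 and -3.53 without HB replicate 2.

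Of the Robo and Unc5 receptors, Unc5c was the one that gained most. This netrin receptor, which mediates repulsion, measured 0.905 and 1.15 CPM (ES), 53.3 and 53.4 (HB), 168 and 90.6 (HE1), 151 and 247 (HE2) and 165 and 173 (HP). ES libraries were at the bottom, HB libraries in the middle, and HE1, HE2 and HP overlapped at the top. Unc5c rose from ES to HB (5.72 ± 0.37, adjusted p = 2.16e-06). Its rise from HB to HE1 (1.27 ± 0.28, adjusted p = 0.00736) was not called without HB replicate 1 (1.21), HB replicate 2 (1.23) or HE1 replicate 1 (0.72). Robo1 gave 112 and 121 CPM (ES), 157 and 157 (HB), 57.6 and 35.8 (HE1), 30.2 and 27.7 (HE2) and 16.5 and 20.9 (HP). ES and HB were highest and did not overlap the later stages, and Robo1 fell from HB to HE1 (-1.75 ± 0.21, adjusted p = 0.000238). Robo4, the endothelial Robo, measured 8.83 and 8.92 CPM (ES), 6.18 and 4.93 (HB), 91.2 and 65.9 (HE1), 41.6 and 6.51 (HE2) and 1.25 and 8.90 (HP). HE1 libraries were highest, HE2 replicate 1 stood between, and HE2 replicate 2 was at the level of ES and HB. Robo4 rose from HB to HE1 (3.82 ± 0.88, adjusted p = 0.0086), a call that ended without HB replicate 1 (3.93, adjusted p = 0.0517) or HB replicate 2 (3.62, adjusted p = 0.0752). It was lower in HP than in HE1 (-3.98 ± 0.89, adjusted p = 0.00963), by -5.95 without HP replicate 2 and -3.13, no longer called, without HP replicate 1. Robo3 measured 1.42 and 1.41 CPM (ES), 9.72 and 7.16 (HB), 6.44 and 10.1 (HE1), 52.9 and 8.0 (HE2) and 7.96 and 17.3 (HP), with HE2 replicate 1 far above HE2 replicate 2. Its rise from ES to HB (2.57) kept its size but was not called without ES replicate 1 (2.59), ES replicate 2 (2.58) or HB replicate 1 (2.36), or in limma-voom (2.54). Robo2 rose from HB to HE1 (1.99 ± 0.44, adjusted p = 0.00736) although its HE1 libraries differed, at 5.43 and 14.5 CPM, and was not called without HB replicate 2 (1.69) or HE1 replicate 2 (1.12). It stayed between 8.89 and 12 CPM in HE2 and HP. Unc5a and Unc5d, at most 3.04 and 2.81 CPM, were called lower in HE1 than in HB.

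ES against HB asks what changes as pluripotent cells become FLK1+ mesoderm. In HB 19 of 61 members were higher than in ES (11.5% of all tested genes were) and 18 were lower (17.3% of all tested genes). In the 19 and the 18, both libraries of one stage lay above both of the other. The threshold of a call makes this likely for any called gene, so it adds no support. The higher members comprised 2 ephrins, 6 semaphorins, 5 Slit, Robo, netrin and Unc5 genes, 2 Eph receptors and 4 plexins, led by Sema3a, Plxna4, Sema6d, Unc5c and Plxnd1. The lower members comprised 8 semaphorins, 6 Eph receptors, 3 plexins and Ntn1, with Plxnb3, Sema4f (-4.51), Epha2, Sema3c and Sema4b showing the largest falls. That of Plxnb3 (-4.57) was -8.41 without HB replicate 1 and -3.53 without HB replicate 2, and that of Sema3c (-3.93) -5.56 and -3.15. The median over the members was 0.43, against 0.00 over all tested genes. Neural markers, 10 of 14 of which were tested, summed to 272 and 264 CPM (ES), 33.5 and 29.4 (HB), 78.4 and 112 (HE1), 59.9 and 34.3 (HE2) and 38.8 and 41.7 (HP). In HB 9 of these 10 were lower than in ES, with Stmn2 the most abundant at 137 and 130.2 CPM in ES, and Sox1 at 3.03 and 3.21 CPM in ES and 0.0992 and 0.0282 in HB. Other lists rose in part, with 4 of 5 endoderm and trophoblast, 6 of 8 blood progenitor and 5 of 8 endothelial markers higher, while Ptprc of the blood list (-4.79), Pecam1 of the endothelial list (-2.15) and Cd68 of the macrophage list (-1.07) fell. Mural and fibroblast markers had 2 of 9 higher and 3 lower, and cardiac markers 2 of 6 higher and 2 lower. With the replicate number as a term the call of Epha10, lower in HB (-2.08), ended (adjusted p = 0.0729). It also ended with DESeq2 (adjusted p = 0.174) and with total counts in place of TMM (0.0688). Without any 1 of the ES and HB libraries the call ended too, at -2.06, -2.08, -3.12 and -1.45. The part of the marker lists in the members' change was not tested.

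HB against HE1 asks what changes on the way from mesoderm to hemogenic endothelium. In HE1 13 members were higher than in HB (12.7% of all tested genes) and 18 were lower (8.19%). Slit2, Robo4, Plxnc1, Sema3g and Ntn3 rose most, and Epha3, Unc5d, Efna3, Sema5b and Epha1 fell most. The fall of Epha3 (-5.09) was -5.84 without HE1 replicate 1, and that of Unc5d (-5.08) was -6.24 without HE1 replicate 1 and -4.36 without HE1 replicate 2. Median changes were -0.41 for the members and 0.04 for all tested genes. By family, 5 semaphorins, 5 Slit, Robo, netrin and Unc5 genes, 2 plexins, Epha2 and no ephrin rose, and 6 semaphorins and 3 of each other family fell. Without HB replicate 2, 6 members were higher (6.03% of all genes tested then), and with the replicate number as a term the rise of Sema3b was 1.04 as before but not called (adjusted p = 0.0609). Nor was Sema3b called with only the libraries compared (1.06, adjusted p = 0.0814) or without any 1 of the ES, HB and HE1 libraries (0.76 to 1.26). Endothelial markers rose in the same comparison, as given above. Mural and fibroblast markers, 9 of 10 tested, summed to 137 and 152 CPM (ES), 142 and 150.1 (HB), 851 and 1679 (HE1), 976 and 636 (HE2) and 1183 and 579 (HP), led in HE1 by Acta2, with Dcn at or under 0.244 CPM, and 5 of them rose while Rgs5 fell (-3.50). Cardiac markers, 6 genes, summed to 19.6 and 21.1 CPM (ES), 21.3 and 23 (HB), 24.6 and 88.8 (HE1), 10.8 and 3.90 (HE2) and 4.17 and 5.31 (HP), led in HE1 by Tnnt2, and 3 rose while Myl7 fell (-3.90). Of other lists 3 of 10 neural, 2 of 5 macrophage and 3 of 8 blood progenitor markers rose, and 6 of 8 HB, 1 of 10 neural and 1 of 5 endoderm and trophoblast markers fell. The part of any list in the members' change was not tested.

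HE1 against HE2 asks what changes as TIE2+ cells gain CD41. In HE2 2 members were higher than in HE1, Sema4d and Epha7 (3.26% of all tested genes), and 17 were lower (5.39%). The lower members were 6 semaphorins, 4 ephrins, 3 Eph receptors, the netrins Ntn1, Ntn3 and Ntn4, and Plxnb1, with the largest falls in Ephb1 (-2.87), Sema3g (-2.47), Ntn4 (-2.17), Sema7a (-2.13) and Plxnb1 (-2.03). The median was -0.85 for the members and -0.07 for all tested genes. The count of lower members rested on single libraries: it was 3 without HE2 replicate 2 (0.401% of all genes tested then), 5 without HE1 replicate 2 (1.1%), 11 without HB replicate 1 (2.85%), 11 without HB replicate 2 (2.81%) and 27 without HE2 replicate 1 (8.67%). With only the HE1 and HE2 libraries in the model it was 2 (0.903%), Ntn3 and Sema3g. Without HE2 replicate 2 the changes of these 5 members were -2.38, -1.91, -1.43, -1.68 and -1.42, none of them called. Without HE1 replicate 2 they were -2.92, -2.52, -1.80, -1.48 and -1.39, not called either, and without HE2 replicate 1 they were -3.59, -3.34, -3.66, -2.76 and -3.01, all called. The call of Ntn4 also ended without ES replicate 1, ES replicate 2, HB replicate 1 or HB replicate 2, at -2.15, -2.15, -2.15 and -2.14. With the replicate number as a term the calls of Efna2, Ntn1 and Sema3b ended (adjusted p = 0.0537, 0.0573 and 0.0612). Marker lists changed in the same comparison: 7 of 8 ES, 5 of 6 cardiac, 4 of 8 HB, 3 of 9 mural and fibroblast, 3 of 5 endoderm and trophoblast, 2 of 10 neural and 1 of 8 endothelial markers were lower, and 8 of 8 blood progenitor and 1 of 5 macrophage markers (Lyz2) were higher. ES and cardiac sums were larger in HE1 replicate 2 than in HE1 replicate 1. Their part in the members' change was not tested.

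HE2 against HP asks what follows when TIE2 is lost. With edgeR and the filter on low counts, 0 members were higher and 0 lower in HP (0.0% and 0.0% of all tested genes). In that fit 15 members had an unadjusted p under 0.05, 2 of them higher (2.97% of all tested genes) and 13 lower (4.93%). DESeq2 called 2 higher, Sema4d and Sema5b (0.656% of all genes it tested), and 3 lower, Efna1, Plxnd1 and Sema6a (1.17%). Limma-voom called Sema4d higher (0.155%) and 0 lower (0.119%). With no filter on low counts, edgeR called 2 higher (0.372%) and 10 lower (0.997%). Plxnd1 changed by -1.23 ± 0.23 in edgeR (adjusted p = 0.0901), and Efna1 by -2.21 ± 0.50 (adjusted p = 0.14). Their HP libraries lay below both HE2 libraries. The member median was -0.18, against 0.01 for all tested genes. Without HE2 replicate 2, edgeR called 10 members lower (1.95% of all genes tested then) and 1 higher (0.205%). It called 1 lower (0.176%) and 1 higher (0.0985%) without HE1 replicate 1, and 1 higher (0.0975%) without HE1 replicate 2.

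HE1 against HP spans both steps. In HP 3 members were higher than in HE1, Sema4d, Epha7 and Sema5b (5.35% of all tested genes), and 27 were lower (11.2%). The 27 held 8 semaphorins, 6 Slit, Robo and netrin genes, 5 ephrins, 4 Eph receptors and 4 plexins, with Sema3g, Robo4, Ntn4, Efna1 and Sema6d falling most. The median was -1.03 for the members and -0.02 for all tested genes. Without HP replicate 1, 17 members were lower (4.66% of all genes tested then), and 5 were higher without HP replicate 2 (5.67%). Calls that ended without HP replicate 1 included Sema3a (-2.30), Sema6d (-2.79), Slit2 (-1.89) and Robo4 (-3.13). Without HP replicate 2 the falls of Sema3g, Robo4 and Sema6d were -5.48, -5.95 and -4.69, and without HP replicate 1 that of Sema3g was -3.34. In the same comparison 7 of 8 endothelial, 8 of 8 ES, 6 of 6 cardiac, 6 of 8 HB, 3 of 5 endoderm and trophoblast, 3 of 9 mural and fibroblast and 3 of 10 neural markers fell and 7 of 8 blood progenitor markers rose. Macrophage markers, 5 of 6 tested, summed to 17.8 and 18.8 CPM (ES), 14.7 and 13 (HB), 51.5 and 27.8 (HE1), 43.6 and 32.8 (HE2) and 38.3 and 45.4 (HP), with Lyz2 the most abundant in HP and C1qa at 0 in each library. From HE1 to HP Csf1r, Adgre1 and Lyz2 rose (3.17, 2.90 and 3.45) and Mrc1 fell (-2.62). Markers of endoderm and trophoblast, 5 of 8 tested, summed to 129 and 136 CPM (ES), 490.4 and 524 (HB), 365 and 551 (HE1), 242 and 134 (HE2) and 198 and 144 (HP), led in HP by Krt8, with Ttr at 0 in both HP libraries. The part of these lists in the members' change was not tested.

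**Figure D4:**
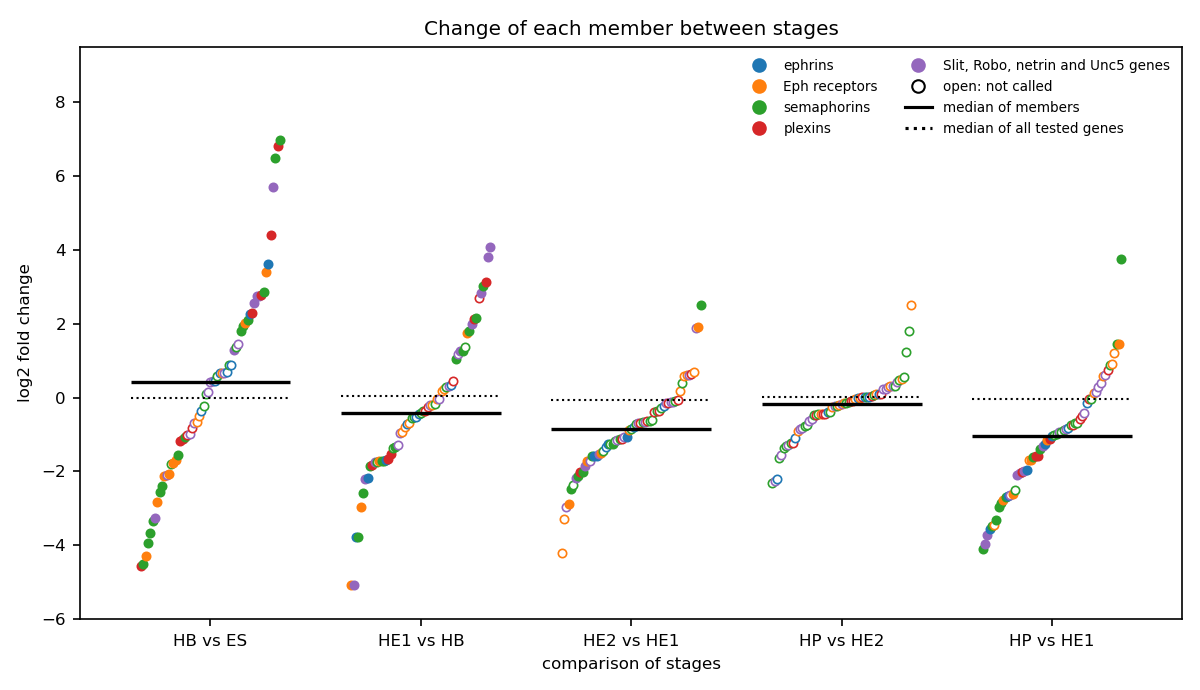
Log2 fold change of each of the 61 members in 5 comparisons of stages (points, filled where called, coloured by family), with the median of the members (solid line) and of all tested genes (dotted line). The member medians are 0.43, -0.41, -0.85, -0.18 and -1.03, against 0.00, 0.04, -0.07, 0.01 and -0.02 for all tested genes.

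Partners of these families were taken from fixed lists. Of 22 co-receptors and adhesion partners 20 were tested: 6 rose and 6 fell from ES to HB, 4 rose and 4 fell from HB to HE1, 1 rose and 7 fell from HE1 to HE2, and 1 rose and 10 fell from HE1 to HP. Over all tested genes 11.5% rose and 17.3% fell from ES to HB, and 12.7% rose and 8.19% fell from HB to HE1. The shares were 3.26% and 5.39% from HE1 to HE2, and 5.35% and 11.2% from HE1 to HP. Nrp1, the co-receptor of Sema3a, measured 1.38 and 1.26 CPM (ES), 271 and 316 (HB), 276 and 203 (HE1), 143 and 56.1 (HE2) and 59.3 and 68.2 (HP). It rose from ES to HB (7.78 ± 0.47, adjusted p = 1.41e-06), as Sema3a and Plxna4 did. Nrp2, the co-receptor of Sema3f and Sema3g, gave 125 and 124 CPM (ES), 241 and 291 (HB), 589 and 401 (HE1), 320.2 and 166 (HE2) and 62.1 and 96.2 (HP). HE1 libraries were highest and HP libraries lowest, and Nrp2 was lower in HP than in HE1 (-2.65 ± 0.33, adjusted p = 0.000571). The netrin receptor Dcc was at 1.99 and 2.15 CPM in ES and at most 0.495 later, and Neo1, its relative, fell from 164 and 165 CPM in ES to 65.9 and 73.1 in HB (-1.24 ± 0.21, adjusted p = 0.00108). The adhesion molecule L1cam fell from HB to HE1 (-5.35 ± 0.31, adjusted p = 4.51e-06) and Flrt2, a ligand of Unc5 receptors, rose (4.64 ± 0.40, adjusted p = 3.18e-05). Chl1, a relative of L1cam, was the 1 co-receptor higher in HE2 than in HE1, with 0.532 and 0.861 CPM (ES), 1.16 and 0.901 (HB), 0.463 and 0.297 (HE1), 4.27 and 17.4 (HE2) and 36.8 and 24.4 (HP). It rose from HE1 to HE2 (4.84 ± 0.68, adjusted p = 0.00309), as Sema4d and Epha7 did.

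Of 12 other guidance genes 10 were tested, and 3 rose from ES to HB: Cxcr4 (5.08), Wnt5a (5.28) and Bmp7 (1.81). From HB to HE1 Cxcl12 rose (2.38) and Rgma, Cxcr4, Bmp7 and Wnt5a fell, by -2.96, -5.60, -4.32 and -1.69. Draxin, a netrin antagonist, was at 2.35 and 2.58 CPM in HE1 and 8.07 and 9.14 in HE2, a rise of 1.80 ± 0.28, adjusted p = 0.00476, while Rgmb, Bmp7 and Wnt5a fell, by -1.72, -3.66 and -1.43. From HE1 to HP Draxin rose (1.69) and Rgmb and Wnt5a fell (-2.31 and -1.43). Of 50 intracellular effectors, all tested, 15 rose and 7 fell from ES to HB, 13 rose and 3 fell from HB to HE1, 1 rose and 8 fell from HE1 to HE2, and 2 rose and 18 fell from HE1 to HP. For both lists, the shares of all tested genes that rose and fell were 11.5% and 17.3% from ES to HB and 12.7% and 8.19% from HB to HE1. They were 3.26% and 5.39% from HE1 to HE2, and 5.35% and 11.2% from HE1 to HP. The genes left out by definition are Efnb2, with mean CPM of 37.9 (ES), 219 (HB), 236 (HE1), 71.6 (HE2) and 34.3 (HP), Ephb4, highest in HE1 at 373 and 244 CPM, and Unc5b, highest in HE1 at 434 and 463 CPM. All 3 were lower in HP than in HE1, by -2.79, -1.69 and -2.51.

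Some members are on the study's own lists of genes linked to primed enhancers. Plxna4, Sema3a, Efna3, Sema6b and Slit1 are listed for the step from ES to HB, and 5 of these 5 were called higher in HB. Sema3e and Sema3g are listed for the step from HB to hemogenic endothelium, and both were called higher in HE1. These lists were chosen by the study on the same libraries and are not independent evidence of direction.

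Members lie on many chromosomes, some side by side with different courses. On chromosome 3 Efna1, Efna3 and Efna4 lie within gaps of 32.8 and 10.4 kb and were highest in HE1, HB and ES. On chromosome 9 the end of Robo4 (chr9:37401897-37415115, plus strand) lies 0.554 kb from that of Robo3 (chr9:37415669-37433246, minus strand), and the genes were highest in HE1 and, by HE2 replicate 1 alone (52.9 CPM), in HE2. Without that library HE2 is at 8.0 CPM and the Robo3 mean is highest in HP. Members have long transcripts, with a median exon length of 6641 bp against 3174 bp for all tested genes. RefSeq promoter windows of 300 bases (GRCm38.p6) were found for 52 members, 68 windows in all, with a median of 18.5 CG per window against 7.0 over 32851 windows of all genes.

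Motifs were searched in these windows on both strands. RUNX (TGTGGT) was in 13.2% of member windows and 16.8% of all windows, TEAD (GGAATG) in 11.8% and 14.7%, E-box (CACGTG) in 7.35% and 7.15%, AGATAA, the motif of GATA factors, in 4.41% and 11.2%, AP-1 (TGANTCA) in 4.41% and 7.81%, and ETS (CCGGAAG) in 2.94% and 8.86%. Windows of 5 members with large changes are shown 5′ to 3′ on the strand of the gene, with matches in capitals, which describe letters only. Those of Sema3a and Unc5c hold RUNX, that of Plxnd1 TEAD and that of Sema4d RUNX and AP-1, while Robo4 holds no match and 2 CG. The windows of Sema3a, Sema4d and Unc5c lie inside the Ensembl genes (chr5:13125414-13602565, chr13:51685529-51793747 and chr3:141465216-141834924), and Sema4d has 2 other windows without a match.
Sema3a (GRCm38.p6, chr5:13396534-13396833, plus strand): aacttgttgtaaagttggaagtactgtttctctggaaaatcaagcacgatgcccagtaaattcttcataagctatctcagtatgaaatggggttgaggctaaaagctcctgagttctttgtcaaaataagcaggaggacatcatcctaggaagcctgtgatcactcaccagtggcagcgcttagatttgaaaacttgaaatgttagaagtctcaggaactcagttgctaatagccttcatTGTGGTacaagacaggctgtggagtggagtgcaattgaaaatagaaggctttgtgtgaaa
Unc5c (GRCm38.p6, chr3:141465314-141465613, plus strand): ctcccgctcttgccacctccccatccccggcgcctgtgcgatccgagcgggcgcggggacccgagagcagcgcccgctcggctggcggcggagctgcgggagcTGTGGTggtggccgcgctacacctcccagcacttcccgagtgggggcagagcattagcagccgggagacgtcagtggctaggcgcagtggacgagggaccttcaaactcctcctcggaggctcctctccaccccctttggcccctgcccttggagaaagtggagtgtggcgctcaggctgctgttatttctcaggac
Plxnd1 (GRCm38.p6, chr6:115994956-115995255, minus strand): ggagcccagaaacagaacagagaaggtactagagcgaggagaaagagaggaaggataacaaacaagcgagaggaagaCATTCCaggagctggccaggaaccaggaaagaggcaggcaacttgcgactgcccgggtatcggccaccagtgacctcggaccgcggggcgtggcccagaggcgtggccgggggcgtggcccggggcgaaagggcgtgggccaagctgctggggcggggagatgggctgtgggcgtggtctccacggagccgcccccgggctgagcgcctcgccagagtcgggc
Robo4 (GRCm38.p6, chr9:37401722-37402021, plus strand): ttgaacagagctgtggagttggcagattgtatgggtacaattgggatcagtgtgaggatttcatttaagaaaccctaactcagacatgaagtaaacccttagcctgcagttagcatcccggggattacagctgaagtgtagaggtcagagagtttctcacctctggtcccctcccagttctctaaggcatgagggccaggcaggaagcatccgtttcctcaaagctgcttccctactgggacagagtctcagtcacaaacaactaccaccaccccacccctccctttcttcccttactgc
Sema4d (GRCm38.p6, chr13:51748761-51749060, minus strand): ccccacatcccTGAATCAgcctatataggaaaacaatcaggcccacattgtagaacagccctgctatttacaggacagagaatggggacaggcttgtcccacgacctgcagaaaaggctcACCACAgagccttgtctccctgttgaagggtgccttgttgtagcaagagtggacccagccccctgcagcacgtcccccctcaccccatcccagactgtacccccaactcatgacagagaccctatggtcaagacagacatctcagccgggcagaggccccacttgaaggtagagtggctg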

How the data were processed

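Nuclear RNA from 10 libraries, 2 per stage, was measured by sequencing. The authors removed ribosomal reads (RiboDetector) and trimmed the rest (Trimmomatic), aligned them to mm10 (HISAT2 2.2.1) and deposited raw counts per gene made by featureCounts 2.0.1, for which, per the file headers, strand-specific fragments were counted on exons of Ensembl release 102 and on each gene where genes overlap. The deposited matrix holds 1 score per gene and stage, a mean expression made by the authors with edgeR 3.40.2, and was used for gene symbols only. No column was left unmapped (0).

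Here the counts of 55487 genes were filtered with filterByExpr on stage, which left 22596, scaled by TMM and fitted in edgeR 4.0.16 (R 4.3.3) with stage as the term, over all 10 libraries (5 residual degrees of freedom, common biological coefficient of variation 0.226). The quasi-likelihood F test was adjusted by Benjamini-Hochberg over all tested genes. The standard error of a fold change is its size divided by the square root of F. FPKM are CPM per kb of merged exons. The fit was tested on simulated data.

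Members with a stage mean of at least 9 CPM, at most 7 a family, highest first, are given in every library, and the 5 members with the largest called changes in each direction of a comparison are named too. Other genes are named from the lists of markers, co-receptors and other guidance genes, and members outside these rules were named after their values were seen. Members and lists were chosen with earlier results of these data known. Alternatives were DESeq2 1.42.0, limma-voom (limma 3.58.1), no filter, the genes of the deposited matrix, scaling by total counts, only the libraries compared, a replicate block, a 4-fold threshold or none, and leaving out each library. The labels do not say whether replicate numbers pair libraries across stages. Correlations of the replicate deviations between stages ran from -0.316 to 0.213, which cannot decide it. Promoter sequences came from RefSeq (GRCm38.p6). Python 3.11.15 with numpy 2.4.6, pandas 2.3.3, scipy 1.17.1 and matplotlib 3.10.9 was used.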

Additional observations from a re-analysis of the deposited data

How the results depend on the processing

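Of 117 called changes of members, 95 were called at the same threshold with every other tool, scaling, filter, gene set and model, 69 also with each library left out, and 0 changed sign. Counts that moved by more than 1.5 times follow. At least 4-fold, a stricter threshold, gave 7 higher (7.71% of all tested genes) and 8 lower members (3.77%) in HE1 than in HB. It gave 1 higher (1.65%) and 6 lower (2.34%) in HE2 than in HE1, and between HE1 and HP 1 rise (2.97%) and 16 falls (6.26%). With no fold threshold 6 were higher in HP than in HE1. With no filter on low counts 26 were lower in HE2 than in HE1 (7.34% of all genes tested then). That fit also gave 2 higher (0.372%) and 10 lower (0.997%) in HP than in HE2. In that last comparison DESeq2 gave 2 higher (0.656%) and 3 lower (1.17%) and limma-voom 1 higher (0.155%). With only the libraries compared, fewer samples in the model, 2 were lower in HE2 than in HE1 (0.903%). For these filters and tools the cause was not tested. In a fit of only the genes of the deposited matrix, 19 members were higher (13.4% of genes tested then) and 19 lower (18.5%) in HB than in ES. In HE1 13 were higher (14.2%) and 18 lower (9.17%) than in HB. In HE2 2 were higher (4.03%) and 17 lower (7.84%) than in HE1. In HP 3 were higher (6.56%) and 28 lower (13.8%) than in HE1.

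Leaving out each library in turn, with the lone sample assumed to vary like the other groups, gave 16 to 20 higher and 14 to 21 lower in HB than in ES, 6 to 15 and 16 to 20 in HE1 than in HB, 2 to 3 and 3 to 27 in HE2 than in HE1, 0 to 1 and 0 to 10 in HP than in HE2, 2 to 5 and 17 to 28 in HP than in HE1, and 57 to 60 that differed among stages. In each comparison the share of all tested genes that was called moved between these fits too. These ranges alone therefore do not set the members apart from other genes. The replicate block gave 19 and 17, 12 and 18, 2 and 14, 0 and 0, 2 and 27, and 58. With total counts in place of TMM 49 of 305 stage means moved by more than 1 SD, at most by a ratio of 1.13, and the median change over all tested genes from HE1 to HE2 was -0.17. Of the 61 members, 9 had 3 counts or fewer in a library, where counting error is large relative to the value. The part of depth in these low counts was not tested.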
